A study of Rattus norvegicus with 24 samples.

Results

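The cytosolic ribosomal protein genes were followed through the cartilage zones of the growing rat tibia. These genes were taken as every gene with a single platform symbol beginning Rps, Rpl or Rplp and a number, plus Rpsa, leaving out the S6 kinases named Rps6k. The rule gave 50 of the 14217 genes that the array platform names by 1 symbol. They lay on 57 probe sets, and each gene was represented by its probe set of highest mean signal over the 24 arrays. Of the 50, 34 carried a large subunit symbol and 16 a small subunit symbol. The list held 8 symbols of paralogs or pseudogenes (Rpl3l, Rpl7l1, Rpl26l1, Rpl39l1, Rps27l, Rps4y2, Rpl37-ps2 and Rps4x-ps1).

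Long bones lengthen at the growth plate, a layer of cartilage whose cells pass from a resting to a dividing, then to an enlarging hypertrophic state. Rats 1 week old, described as not castrated, gave total RNA from tibial cartilage that had been dissected by hand into epiphyseal cartilage (n = 4, animals 1, 2, 4 and 5) and the resting, proliferative, transition (between proliferative and hypertrophic) and hypertrophic zones (n = 5 each, animals 1 to 5). No group carried a treatment or an engineered allele. Male rats are named for the resting, proliferative and hypertrophic arrays, whereas the epiphyseal and transition arrays carry differently worded labels that give no sex. Any difference in handling between these sets of arrays and the zone itself cannot be told apart. Each array held 1 zone of 1 animal, numbered in the sample descriptions, and the animal number was kept as a block in every test. In this bulk tissue, fewer cells of a type and less RNA per cell cannot be told apart.

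A ribosome is built from ribosomal RNA and proteins in a small subunit, which reads the messenger RNA, and a large subunit, which joins the amino acids. Cells that grow and divide keep the messages of these proteins at very high levels, and the proteins are made in near equal amounts because each ribosome holds single copies of almost all of them. Many of these messages begin with a run of pyrimidines, the terminal oligopyrimidine or TOP tract, by which the mTOR pathway controls their translation.

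To show the start of the messages that the results turn on, the 15 bases before and the first 15 bases after the annotated start are given for 12 members from RefSeq (rat assembly GRCr8, chosen for the members with the smallest p-values and for those named by their known roles). Capitals mark the longest sense-strand stretch that reads from a C within 10 bases of the start through at least 4 further C or T. It can be the end of a C and T run that begins further upstream, as in Rpl34, Rpl5 and Rps6. In Rpl5, Rpl23, Rps6 and Rps15a it ends before the annotated start, so by annotation it lies outside the message. Sequences without capitals hold no such stretch. Rpl34 (chr2:221962269-221962298, minus strand), Rpl14 (chr8:129163605-129163634, plus), Rpl23 (chr10:83272170-83272199, minus), Rpl24 (chr11:58128391-58128420, minus), Rpl5 (chr14:1995211-1995240, minus), Rpl11 (chr5:153560788-153560817, minus) and Rplp0 (chr12:46718376-46718405, minus) stand for the large subunit. Rps15 (chr7:10068101-10068130, minus), Rps15a (chr1:181860270-181860299, minus), Rps24 (chr16:96502-96531, plus), Rps6 (chr5:106420526-106420555, minus) and Rpsa (chr8:128728864-128728893, plus) stand for the small subunit.
Rpl34: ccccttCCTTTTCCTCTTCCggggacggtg
Rpl14: gggcgggCCCTCTCCCTTCTCgctgagcgc
Rpl23: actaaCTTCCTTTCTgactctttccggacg
Rpl24: gaatttagggaggagattctctaccctata
Rpl5: actctCTTTCCCacgtcgcttgcgtcctgg
Rpl11: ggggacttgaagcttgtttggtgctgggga
Rplp0: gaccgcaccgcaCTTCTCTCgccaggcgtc
Rps15: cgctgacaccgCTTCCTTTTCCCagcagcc
Rps15a: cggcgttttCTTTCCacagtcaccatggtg
Rps24: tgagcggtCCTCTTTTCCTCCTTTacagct
Rps6: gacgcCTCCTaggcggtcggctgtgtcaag
Rpsa: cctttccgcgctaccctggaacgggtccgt

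Such a stretch, also where it ended before the annotated start, was found in 27 of the 41 members that had a window (65.9%), against 28.9% of all 33469 windows searched. A C at the annotated start itself, followed by at least 4 C or T, whatever lay before it, was found in 11 of the 41 members (26.8%), against 2.63% of all windows. A match is a description of these letters and the annotated starts can be a few bases off. The other 9 members had no window (Rps9, Rps29, Rpl7, Rpl23a, Rpl27, Rpl30, Rpl37a, Rpl37-ps2 and Rps4x-ps1).

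Signals are the deposited MAS5 intensities, on a linear scale, and tests were run on log2(signal + 16), so folds of dim genes are understated. A probe set was tested where it lay above the array median in at least 4 arrays, which 47 of the 50 members did. Rpl30 lay above it in 1 array, Rpl3l in 3 and the pseudogene Rps4x-ps1 in 0. The 47 fell into 38 with a mean log2 signal of 13.76 to 15.79, called bright below, and 9 from 7.78 to 10.91 (Rpl26l1, Rpl28, Rpl37-ps2, Rpl39, Rpl39l1, Rpl7l1, Rps13, Rps27l and Rps4y2). Every bright member lay at or above the 97.6th percentile of its array on all 24 arrays. Their share of the summed signal ran from 3.36% in the hypertrophic array of animal 3 to 8.15% in the proliferative array of animal 1. A further 30 probe sets carry several ribosomal protein symbols at once. They belong to no single gene, are given here only by counts, and 26 of them were bright.

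Hypertrophic markers were highest in the hypertrophic and transition arrays, but the epiphyseal arrays also held more of them than the proliferative arrays. Chondrocyte genes summed to between 262099 and 717624 in every array, and 1 of 10 tested (Matn1) differed between the hypertrophic and proliferative zones. The 9 tested hypertrophic markers summed to 133353 to 265295 in the hypertrophic, 81250 to 140784 in the transition and 15800 to 27151 in the proliferative arrays. In the epiphyseal arrays they summed to 29041 to 76728, and in the resting arrays to 12194 to 33138. Genes of other cell types moved with the hypertrophic zone: erythroid markers summed to 9895 to 35414 there and 2375 to 6587 in the proliferative zone, leukocyte markers to 2683 to 10504 and 761 to 3031, osteoclast markers to 8025 to 77670 and 389 to 1037, and osteoblast markers to 23347 to 105878 and 3648 to 9908. Some epiphyseal arrays were also high, with osteoclast sums of 1732 to 60506, osteoblast sums of 9573 to 28555 and endothelial sums of 427 to 5448. Against the proliferative zone 5 of 5 erythroid, 8 of 9 leukocyte, 4 of 4 osteoclast, 4 of 4 osteoblast and 3 of 5 endothelial markers tested higher in the hypertrophic zone. The lists held 10 erythroid, 10 leukocyte, 10 osteoclast, 7 osteoblast and 8 endothelial genes, and the rest were not tested. A marker could pass the filter through the 5 hypertrophic arrays alone. These shares are thus partly set by the filter and describe the tested markers only. Of 11 skeletal muscle markers, 4 tested higher and 1 lower in the hypertrophic than in the proliferative zone, and 8 tested higher than in the transition zone. Of 12 markers of dividing cells, 11 tested lower in the transition and 9 in the hypertrophic zone. No marker was at 0, since the lowest signal in the table was 0.1. The part of these cells in the results below was not tested.

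Across the 5 zones the bright members had higher mean signals in the resting and proliferative zones than in the transition and hypertrophic zones. Single arrays departed from this. Relative to each gene's mean, the bright members had a median of 0.43 and 0.45 log2 units in the transition and hypertrophic arrays of animal 1. In the proliferative array of animal 3 the median was -0.29. The highest zone mean was proliferative for 26 of the 38 and resting for 12, and the lowest was hypertrophic for 21 and transition for 17. With limma's F test over the zones and Benjamini-Hochberg adjustment, 19 of the 47 tested members (40.4%) differed between zones, against 55.6% of all tested probe sets, so a member was no more often called than other genes. Core large subunit genes counted 12 of 28, core small subunit genes 6 of 13, and paralogs and pseudogenes 1 of 6 (Rps4y2). The 8 smallest adjusted p-values belonged to Rpl34 (9.29e-06), Rpl24 (5.84e-05), Rpl14 (7.16e-05), Rps9 (8.53e-05), Rpl23 (0.000201), Rps15 (0.000482), Rps24 (0.0012) and Rps15a (0.00144). The 19 calls became 9 without the animal block and 31 after quantile normalization.

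**Figure D1:**
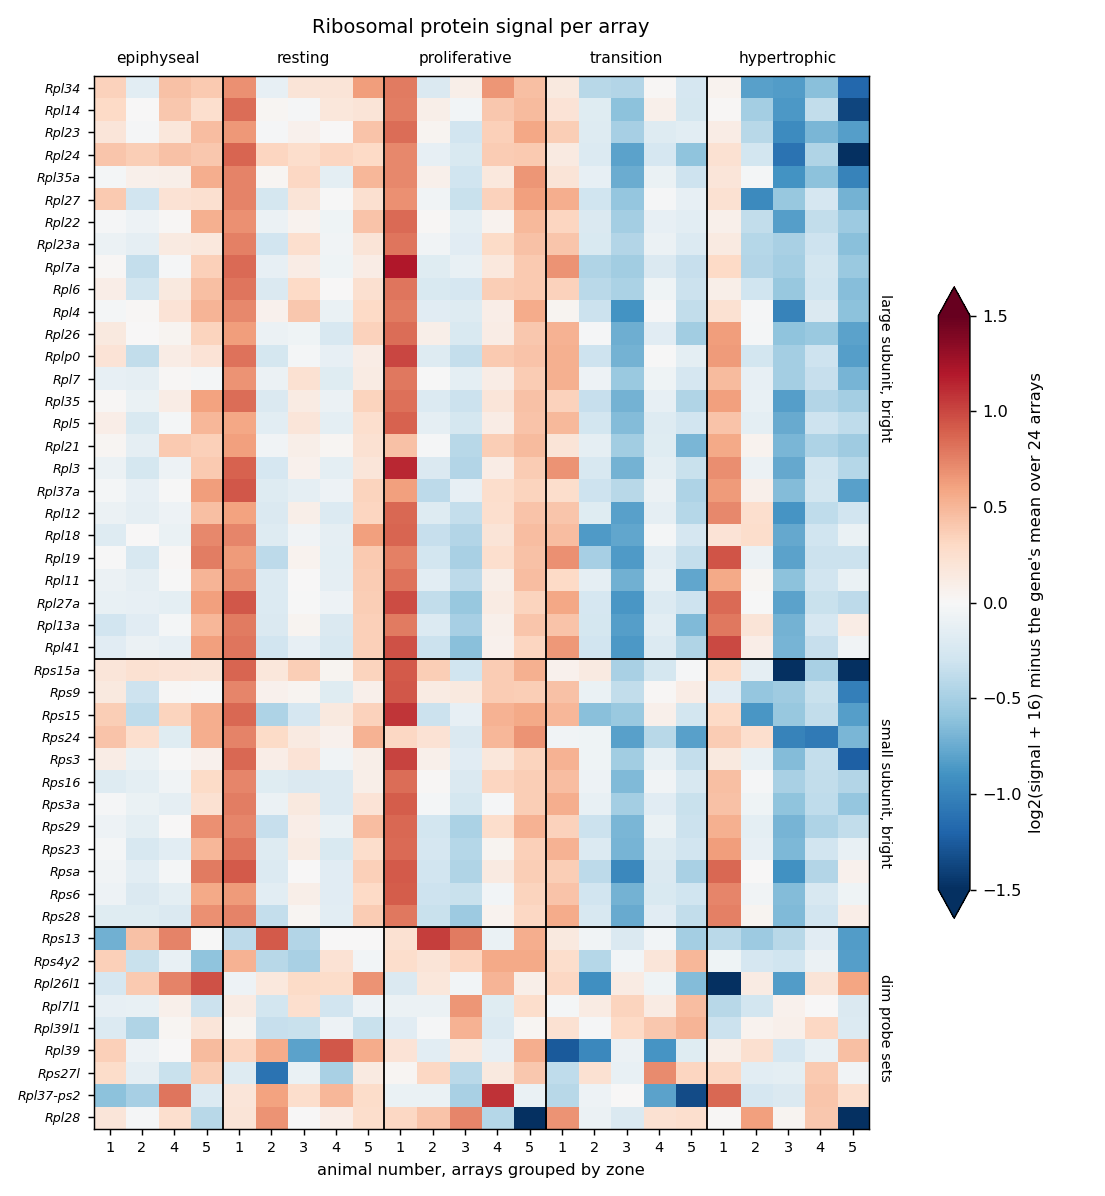
Each tested ribosomal protein gene (rows, 47) on each of the 24 arrays (columns, grouped by zone and numbered by animal), coloured by log2(signal + 16) minus the gene's mean over the arrays; black lines part the zones, the bright large subunit, bright small subunit and dim probe sets. Bright rows share their colour down most columns, are red in the resting and proliferative arrays of animal 1 and blue in the transition and hypertrophic arrays of animal 3, and the 9 dim rows follow no such pattern.

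The bright members rose and fell as a block from array to array. Over the 703 pairs of bright members the median Pearson r across the 24 arrays was 0.85, from 0.45 to 0.99. For deviations from the zone means it was 0.87, from 0.4 to 0.99, so the joint movement was also present within zones. These correlations are descriptions: all points share the same arrays and the same scaling. The median deviation of the bright members from their own means lay between -0.02 and 0.84 log2 units in the 5 arrays of animal 1, between -0.24 and -0.1 in those of animal 2 and between -0.69 and 0.08 in the 4 of animal 3. It ran from -0.35 to 0.18 in animal 4 and from -0.56 to 0.48 in animal 5. The mean ± SD over the animals of a zone was 0.0825 ± 0.273 (n = 4) in epiphyseal cartilage and 0.17 ± 0.379, 0.194 ± 0.459, -0.19 ± 0.405 and -0.25 ± 0.451 (n = 5 each) in the resting, proliferative, transition and hypertrophic zones. The SD within each zone was thus about as large as the difference between zones, and the tests below compare zones within animals.

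**Figure D2:**
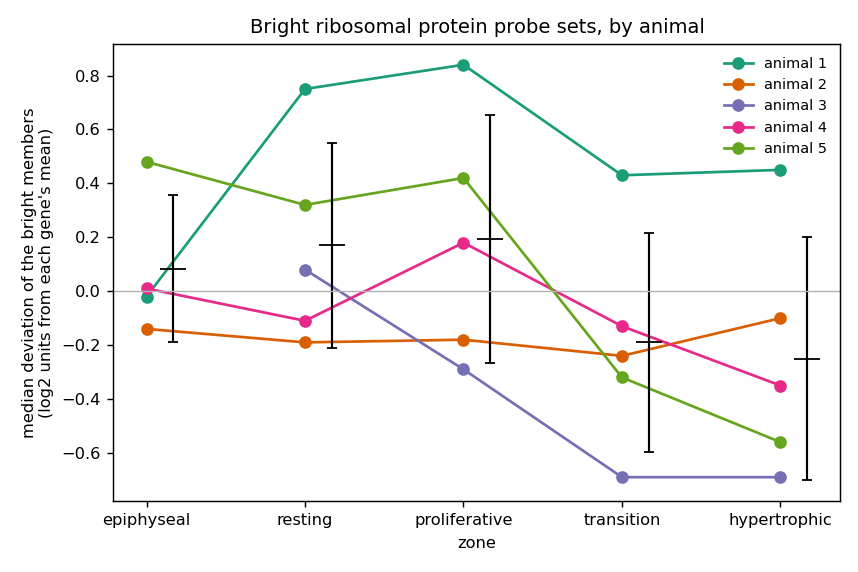
Median deviation of the 38 bright members from their own means (log2 units, vertical) in each zone (horizontal), with a line per animal; black bars give the mean and SD over the animals of a zone. The lines of animals 1, 3, 4 and 5 end lower in the hypertrophic than in the proliferative zone, whereas that of animal 2 stays between -0.24 and -0.1.

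From epiphyseal cartilage to the resting zone no member was called. The median log2 difference was 0.175 over the 47 members and 0.027 over all tested probe sets. In limma 0 members passed, against 2.51% of all tested probe sets, 0 had an unadjusted p under 0.05, and the smallest adjusted p was 0.475. The positive median came from animal 1, whose members differed by a median of 0.69, while the medians in animals 2, 4 and 5 were -0.0, -0.15 and -0.13. Without animal 1 the median over members was -0.002.

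From the resting to the proliferative zone, where 3 of 12 markers of dividing cells tested higher and 7 of 11 skeletal muscle markers lower, no ribosomal protein signal passed the test. The median difference was 0.028, against -0.019 over all tested probe sets, and 0 of 47 were called by limma, against 13.9% of all tested probe sets. At an unadjusted p under 0.05 the count was 1 higher (Rps4y2, 0.43 ± 0.2, limma adjusted p = 0.166) and 0 lower. Animals differed in sign: the members' median was 0.3 in animal 4 and -0.4 in animal 3. Rps6, the subunit protein phosphorylated by S6 kinase, had a signal of 64289, 37126, 43935, 36715 and 50712 in the resting zone of animals 1 to 5. In the proliferative zone it had 77318, 33421, 32770, 40128 and 51968. The groups overlapped, with animals 1, 4 and 5 higher and animals 2 and 3 lower in the proliferative zone.

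In the transition zone the bright members had lower signals than in the proliferative zone, and none of the 47 was lower by 2-fold or more. All 38 bright members and 43 of the 47 tested had a difference below 0, against 10591 of all 19213 tested probe sets. The median was -0.39, against -0.065 over all tested probe sets. Limma called 9 members lower (19.1%), against 12.5% of all tested probe sets, and 0 higher, against 8.85%. The 9 were Rpl4, Rpl7a, Rpl14, Rpl23, Rpl24, Rpl34, Rpl39, Rps15 and Rps24, with fitted signals 26.1% to 42.8% lower. Members lower in the transition zone of every animal numbered 32 of 47, against 18.5% of all tested probe sets. None of the 47 had transition arrays that all lay below every proliferative array, a pattern of 7.14% of all tested probe sets. The 9 calls were 1 after scaling to one median, 1 without the animal block, 5 without the filter on low values, 27 when only these zones entered the fit, and 4 without animal 1, 2, 3 or 5, so this count depends on the processing. In this comparison 11 of 12 markers of dividing cells were called lower and 7 of 9 hypertrophic markers higher. No tested chondrocyte, erythroid, leukocyte, osteoclast, osteoblast or skeletal muscle marker was called, and 1 of 5 endothelial markers was called higher. The part of these cells was not tested.

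Rps24, a small subunit protein mutated in Diamond-Blackfan anaemia, had the smallest adjusted p in this comparison. Its signals in animals 1 to 5 were 17245, 16162, 11951, 19593 and 22193 in the proliferative zone. They were 13457, 13275, 7930, 10456 and 7878 in the transition zone and 18120, 16635, 6918, 6683 and 8623 in the hypertrophic zone. Every animal was lower in the transition than in the proliferative zone, but the groups overlapped because the transition values of animals 1 and 2 exceeded the proliferative value of animal 3. The log2 difference was -0.73 ± 0.2 (SE, limma adjusted p = 0.00905). Against the proliferative zone the hypertrophic difference was -0.72 ± 0.2 (adjusted p = 0.0052), with only animals 3, 4 and 5 lower. The step from the transition to the hypertrophic zone depended on the probe set. It was 0.01 ± 0.2 on this one (adjusted p = 0.983) and -0.53 ± 0.16 on a second, dimmer one (adjusted p = 0.0181, lower in 5 of 5 animals).

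Rpl39, a short protein at the exit tunnel of the large subunit, was the only tested member called lower in the transition zone and higher again in the hypertrophic zone. Its probe set was dim. Its proliferative signals in animals 1 to 5 were 1473, 1142, 1425, 1169 and 1874. Its transition signals were 524, 642, 1200, 681 and 1118, and its hypertrophic signals 1354, 1512, 1072, 1182 and 1746. The transition arrays of animals 1, 2 and 4 stood below all others, and those of animals 3 and 5 within the range of the hypertrophic arrays. The log2 difference was -0.81 ± 0.24 from proliferative to transition (adjusted p = 0.0159) and 0.76 ± 0.24 from transition to hypertrophic (adjusted p = 0.021, higher in 4 of 5 animals). Both calls were lost after scaling to one median (adjusted p = 0.076 and 0.147) and without animal 1 (0.114 and 0.124), animal 2 (0.0568 and 0.126) or animal 5 (0.0605 and 0.0682).

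Between the transition and hypertrophic zones most members differed little. Of the 47, 31 had a difference below 0, against 9356 of all 19213 tested probe sets. The median was -0.086, against 0.016 over all tested probe sets. Limma called 5 lower (10.6%), against 11% of all tested probe sets, which is the background rate, and 1 higher (2.13%), against 11.5%. The lower calls were Rpl14, Rpl23, Rpl34, Rps9 and Rps15a, and the higher one Rpl39. Members lower in every animal numbered 10 of 47, against 13.1% of all tested probe sets, and 0 had hypertrophic arrays all below the transition arrays, against 4.65%. Rps9, a core protein of the small subunit, was lower, at -0.55 ± 0.14 (adjusted p = 0.00544) in 5 of 5 animals. Rpl13a, which is also known as an interferon-regulated silencer of translation, had 0.33 ± 0.2 (adjusted p = 0.26) in the other direction. The 6 calls became 20 after quantile normalization, 16 after scaling to one median, 3 in a fit of these zones alone, 1 without the animal block, 2 without animal 2, 3 without animal 4 and 0 without animal 5.

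Against the proliferative zone the hypertrophic zone gave the clearest difference. Signals were lower for 45 of the 47 members, against 10198 of all 19213 tested probe sets. The members rose and fell together on shared arrays, so they are not 47 separate observations. Limma called 24 of the 47 lower (51.1%), against 20.5% of all tested probe sets. It called 0 higher, against 16.9%. The median log2 difference was -0.436, against -0.049 over all tested probe sets, and fitted signals of the 24 were 25.8% to 55.5% lower. Falls of at least 2-fold were fewer than in the background, 2 of 47 (Rpl34 and Rps15a, 4.26%) against 9.07%. Members lower in every animal numbered 22, against 19.8% of all tested probe sets. The animals differed in size: the median over the 47 members was -0.33 in animal 1, -0.04 in animal 2, -0.41 in animal 3, -0.54 in animal 4 and -0.95 in animal 5. In animal 2, 26 of the 47 were lower. Without the animal block 15 members were called. The labels of both zones share their wording. The markers of blood, bone and dividing cells given above differed between these zones, and their part was not tested. The log2 ratio of the 3' to the 5' actin control probe sets was 4.31 ± 0.304 in the hypertrophic and 4.47 ± 0.307 in the proliferative arrays, and that of Gapdh was 2.96 ± 0.54 and 2.67 ± 0.337 (SD, n = 5 each).

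The counts and medians were similar in both subunits. The core large subunit genes had 15 of 28 called and a median of -0.452, and the core small subunit genes 8 of 13 and -0.439. The difference between the subunits was not tested. Paralogs and pseudogenes had 1 of 6 called (Rps4y2) and a median of -0.165. The 30 probe sets with several ribosomal protein symbols, which are other probes on the same arrays, had 18 called lower and 0 higher, with a median of -0.598. By comparison, 297 other tested probe sets with a mean log2 signal above 13 had 88 called lower, 58 called higher and a median of -0.111.

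**Figure D3:**
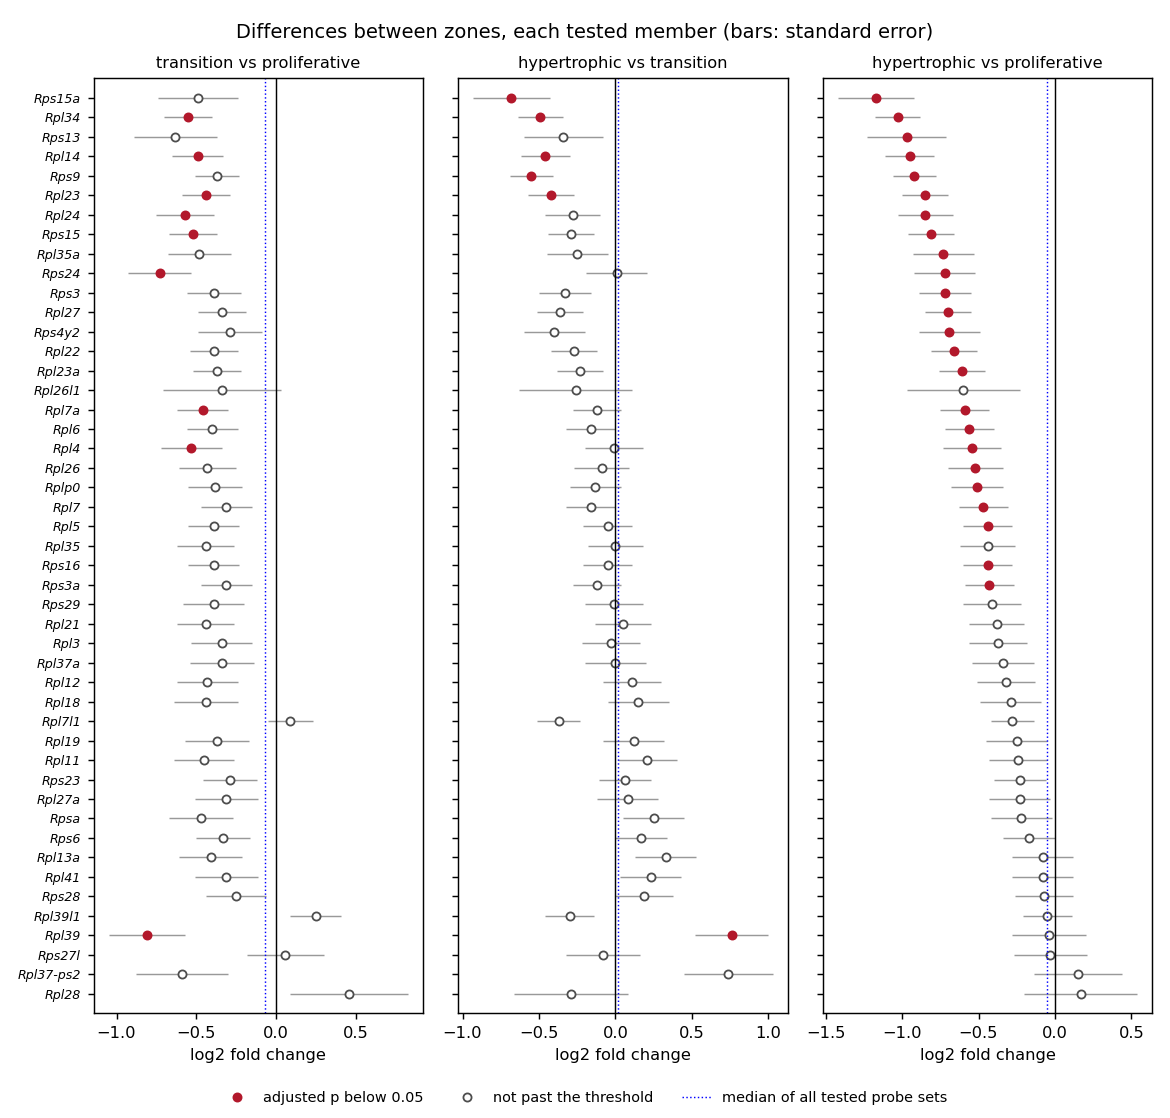
Log2 fold changes (horizontal) of the 47 tested members (vertical, ordered by the hypertrophic against proliferative value) in 3 comparisons, with bars for the standard error, filled points for members past the threshold and a dotted line for the median of all tested probe sets. Filled points number 9, 6 and 24 from left to right, and in the right panel 45 points lie below 0.

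Among large subunit genes, Rpl34 had the smallest adjusted p. Its signals in animals 1 to 5 were 30131, 15074, 18682, 27634 and 24005 in the proliferative, 19358, 13101, 12888, 17677 and 14707 in the transition, and 18187, 9920, 9799, 11334 and 7753 in the hypertrophic zone. Each animal was lower in the hypertrophic than in the transition zone and lower there than in the proliferative zone. The hypertrophic value of animal 1 exceeded the proliferative value of animal 2, so the groups overlapped. In the resting zone it had 28260, 16141, 20057, 19999 and 27061, which is within the range of the proliferative arrays. The difference between the hypertrophic and proliferative zones was -1.03 ± 0.15 (SE, adjusted p = 7.09e-06), composed of -0.55 ± 0.15 (adjusted p = 0.0115) to the transition and -0.49 ± 0.15 (adjusted p = 0.0214) beyond it.

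Rpl14 was also lower in each animal at both steps, on its brightest probe set. Its signals in animals 1 to 5 were 31202, 19558, 17772, 24224 and 25434 in the proliferative, 21229, 16216, 11992, 19319 and 15293 in the transition and 18580, 12914, 10082, 14248 and 7061 in the hypertrophic zone. Only the hypertrophic value of animal 1 lay above the lowest proliferative value. The hypertrophic difference from the proliferative zone was -0.95 ± 0.16 (adjusted p = 2.71e-05). The step from the transition zone, -0.46 ± 0.16 (adjusted p = 0.0327), depended on the probe set: it was 0.44 ± 0.41 on the dim second one (adjusted p = 0.481) and -0.01 on their mean (adjusted p = 0.975). Rpl23, which also binds the p53 regulator Mdm2, was lower, at -0.85 ± 0.15 (adjusted p = 6.91e-05), Rpl24, which forms a bridge between the subunits, at -0.85 ± 0.18 (adjusted p = 0.00049) and Rpl27 at -0.70 ± 0.15 (adjusted p = 0.000512), each in 5 of 5 animals.

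Of the Mdm2-binding proteins Rpl5 and Rpl11, which enter the ribosome together with the 5S RNA, only Rpl5 was called. Rpl5 was lower, at -0.44 ± 0.16 (adjusted p = 0.0361, 5 of 5 animals), and Rpl11 had -0.24 ± 0.19 (adjusted p = 0.331, lower in 4 of 5). Signals of Rpl5 in animals 1 to 5 were 73320, 36226, 33036, 43143 and 53519 in the proliferative and 53578, 36078, 23552, 32055 and 30585 in the hypertrophic zone. The groups overlapped, and animal 2 was nearly level between zones. Whether the pair differed from each other was not tested. Rplp0, the base of the stalk that recruits elongation factors, was lower, at -0.51 ± 0.17 (adjusted p = 0.0184, 5 of 5 animals). Rpl3, part of the peptidyl transferase region, had -0.37 ± 0.19 (adjusted p = 0.121). Rpl13a had -0.08 ± 0.2 and Rpl41, the shortest of the family, -0.08 ± 0.2 (adjusted p = 0.775 and 0.788).

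The other large subunit calls were Rpl4, Rpl6, Rpl7, Rpl7a, Rpl22, Rpl23a, Rpl26 and Rpl35a. They ran from -0.73 ± 0.2 in Rpl35a (adjusted p = 0.00451) to -0.47 ± 0.16 in Rpl7 (adjusted p = 0.0247). All but Rpl4 were lower in 5 of 5 animals, and Rpl4 in 4 of 5. The 13 core members not called, such as Rpl12, Rpl18, Rpl19, Rpl21, Rpl27a, Rpl35 and Rpl37a, had adjusted p-values from 0.0654 in Rpl35 upwards.

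Among small subunit genes, Rps9 had proliferative arrays that all lay above its hypertrophic arrays. Its signals in animals 1 to 5 were 26457, 14991, 15276, 17924 and 17818 in the proliferative and 12289, 9264, 9552, 10915 and 6798 in the hypertrophic zone. The transition values of 18694, 12847, 10697, 14000 and 14981 lay between and overlapped both groups. The hypertrophic difference from the proliferative zone was -0.92 ± 0.14 (adjusted p = 1e-05). Among the 47 members such a separation was also seen in the dim Rps13 and Rps4y2, giving 3 of 47 against 9.98% of all tested probe sets.

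Rps15a had the lowest fitted difference of all members, -1.17 ± 0.25 (adjusted p = 0.000514). Its proliferative signals in animals 1 to 5 were 46439, 31533, 19912, 31935 and 35482, and its hypertrophic signals 30007, 22251, 8389, 17460 and 5852. Animals 3 and 5 had the lowest hypertrophic values, below every other array of this gene, and animals 1 and 2 overlapped the proliferative group. Rps15, a neighbour of the decoding site, was lower, at -0.81 ± 0.15 (adjusted p = 0.000104, 5 of 5 animals). Rps3, a ribosomal protein that also has a role in DNA repair, was lower, at -0.72 ± 0.17 (adjusted p = 0.00143, 5 of 5 animals).

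Rps16 and Rps3a were also called, at -0.44 ± 0.16 (adjusted p = 0.0333) and -0.43 ± 0.16 (adjusted p = 0.0384). Rps6 had -0.17 ± 0.17 (adjusted p = 0.476), Rps23 -0.23 ± 0.17 (adjusted p = 0.318), Rps28 -0.07 ± 0.19 (adjusted p = 0.818) and Rps29 -0.41 ± 0.19 (adjusted p = 0.0961). Rpsa, the laminin receptor protein of the small subunit, had proliferative signals of 95807, 41491, 36760, 55227 and 64921 in animals 1 to 5. Its hypertrophic signals were 91734, 50470, 26920, 37149 and 52858. Animal 2 was higher and the other 4 lower in the hypertrophic zone, and the difference was -0.22 ± 0.2 (adjusted p = 0.412).

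The paralogs and pseudogenes all had dim probe sets, and 1 of the 6 tested was called. Rps4y2 was lower in the hypertrophic zone, with signals of 538, 513, 563, 671 and 671 in the proliferative and 425, 373, 358, 417 and 245 in the hypertrophic arrays of animals 1 to 5. No hypertrophic value reached the lowest proliferative value, and the difference was -0.69 ± 0.2 (adjusted p = 0.00759). Rpl39l1, a copy known from testis, had -0.05 ± 0.16 (adjusted p = 0.841), Rps27l, a p53 target, -0.03 ± 0.24 (adjusted p = 0.941) and Rpl7l1 -0.28 ± 0.14 (adjusted p = 0.117). Rpl26l1 had -0.60 ± 0.37 (adjusted p = 0.22) and Rpl37-ps2 0.15 ± 0.29 (adjusted p = 0.715). The untested Rpl3l, a muscle paralog of Rpl3, and Rps4x-ps1 had zone means of at most 195 and 54.3. Whether the probes of these symbols also bind the messages of their parent genes was not tested.

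Rps13 and Rpl28 carry core symbols yet had dim probe sets. Rps13 had proliferative signals of 378, 678, 562, 299 and 478 in animals 1 to 5 and hypertrophic signals of 239, 216, 236, 285 and 172. All hypertrophic values lay below all proliferative values, and the difference was -0.97 ± 0.26 (adjusted p = 0.00413). Rpl28 had 0.17 ± 0.37 (adjusted p = 0.76), with single arrays at 36.1 in the proliferative zone and 73.7 in the hypertrophic zone, both from animal 5.

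The size of the difference went with the brightness of the probe set. Among the 38 bright members the log2 difference between the hypertrophic and proliferative zones correlated with the mean log2 signal at r = 0.76 and rho = 0.8, so that brighter probe sets had values nearer 0. The 19 dimmer ones had a median of -0.7 and the 19 brighter ones of -0.34. For the 26 bright probe sets of several symbols the values were 0.82 and 0.83, with medians of -0.8 and -0.33 in their dimmer and brighter 13. Over the 297 other bright probe sets they were 0.0 and -0.01, with medians of -0.11 and -0.11. These were not matched in brightness: their dimmer and brighter parts met at 13.64 to 13.65, and those of the members at 15.03 to 15.08. The 297 had brightness trends elsewhere, with r = -0.32 for transition against proliferative and 0.28 for hypertrophic against transition. The bright members had 0.6 and 0.65 in these comparisons. The points share arrays, the zones and probe sequence families, so these are descriptions over probe sets.

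For 6 genes a further probe set could be compared with the brightest one. Of the 6 genes with 7 further probe sets, Rpl3 had a second one of mean log2 signal 11.62 with a difference of -1.15 ± 0.27 (adjusted p = 0.00173), where its brightest one had -0.37. The second probe set of Rps24 (mean 9.58) had -1.12 ± 0.16 (adjusted p = 4.65e-06, 5 of 5 animals) and that of Rpl7 (mean 9.21) -0.89 ± 0.23 (adjusted p = 0.00309). The further sets of Rpsa had -0.50 ± 0.15 (adjusted p = 0.0116) and -0.83 ± 0.18 (adjusted p = 0.000581), against -0.22 in the brightest. That of Rpl7l1 had -0.43 ± 0.16 (adjusted p = 0.0345). The second set of Rpl14, at a mean of 7.07, had -0.39 ± 0.41 (adjusted p = 0.481). Called status in the hypertrophic against the proliferative zone thus differed between probe sets for Rpl3, Rpsa, Rpl7l1 and Rpl14. The part of probe saturation or of cross-hybridisation was not tested.

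**Figure D4:**
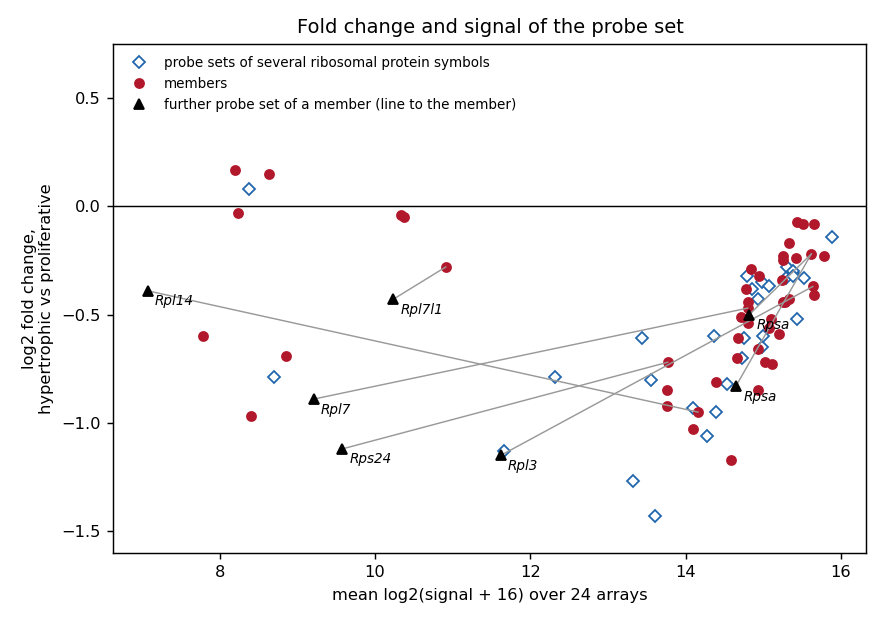
Log2 fold change of the hypertrophic against the proliferative zone (vertical) against the mean log2(signal + 16) of the probe set (horizontal) for the 47 members, the 30 probe sets of several ribosomal protein symbols and 7 further probe sets of members, joined by a line to the member. Among bright points the fold change lies nearer 0 as the signal rises, and the further probe sets of Rpl3, Rpl7, Rpl7l1, Rps24 and Rpsa lie lower than their members.

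In the 21 bright members with the TOP-like stretch the median difference between hypertrophic and proliferative zones was -0.44 (from -1.17 to -0.07), and in the 11 without it was -0.44 (from -0.85 to -0.08). The difference between these groups was not tested. Rpl34 carries the stretch across the annotated start, Rps15a carries it only before the start, and Rpl24, at -0.85, carries none.

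Other genes of protein synthesis were called between the resting and proliferative zones. Of 29 tested translation factors, limma called 9 higher and 0 lower in the proliferative zone, and of 67 tested ribosome biogenesis genes 15 higher and 0 lower, against 6.4% called higher over all tested probe sets. Eif5a, a factor for peptide bond formation at stalls, was higher by 1.08 ± 0.21 (adjusted p = 0.000739), and Fbl, the fibrillarin that methylates ribosomal RNA, by 1.04 ± 0.21 (adjusted p = 0.000973). Ribosomal protein members had 0 of 47 in the same comparison. The difference between the lists was not tested.

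Against the proliferative zone, where 20.5% of all tested probe sets were called lower and 16.9% higher in the hypertrophic zone, 15 of 29 translation factors were called lower (51.7%) and 2 higher (6.9%), with a median of -0.364. Of 67 biogenesis genes, 28 were lower (41.8%) and 2 higher (2.99%), with a median of -0.338. Rrs1, an assembly factor of the large subunit, was lower, at -1.83 ± 0.15 (adjusted p = 1.22e-09) and Nop56, a core protein of small nucleolar particles, at -1.67 ± 0.19 (adjusted p = 2.5e-07). Eif3f, a subunit of the initiation factor that binds the small subunit, was lower, at -0.85 ± 0.14 (adjusted p = 1.86e-05). Of 6 tested genes with ribosome-associated or TOP messages 4 were lower (66.7%), among them Rack1, a small subunit scaffold, at -0.87 ± 0.14 (adjusted p = 1.56e-05).

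Regulators of the pathway did not move as 1 group. Of 22 tested mTOR, Myc and S6 kinase genes, 9 were called higher (40.9%) and 2 lower (9.09%) in the hypertrophic against the proliferative zone, against 16.9% and 20.5% of all tested probe sets. Myc, which drives ribosome production, was lower, at -1.76 ± 0.33 (adjusted p = 0.000128) and had been higher by 1.25 ± 0.33 in the proliferative than in the resting zone (adjusted p = 0.0101). Rps6kb1, the S6 kinase, was higher by 1.11 ± 0.22 (adjusted p = 0.000217), and Eif4ebp1, the translation repressor that mTOR inactivates, lower, at -0.66 ± 0.15 (adjusted p = 0.00101).

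**Figure D5:**
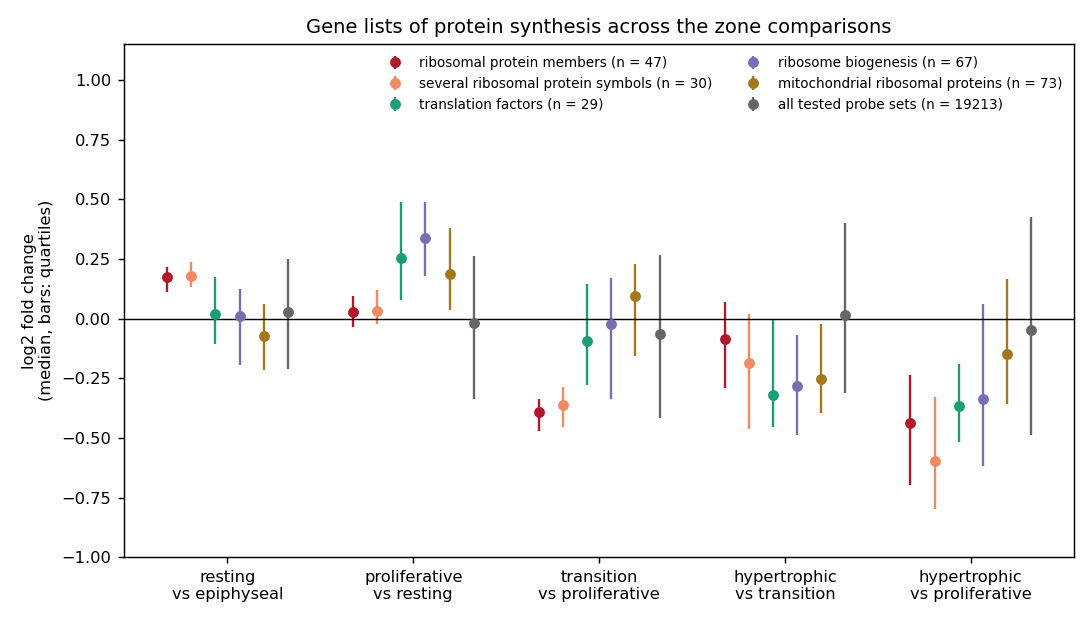
Median log2 fold change (points) and quartiles (bars) of 6 sets of probe sets in the 5 zone comparisons. The ribosomal protein members lie near 0 from resting to proliferative, where translation factors and ribosome biogenesis genes have medians of 0.252 and 0.337, and at -0.436 from proliferative to hypertrophic, where all tested probe sets have -0.049.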

How the data were processed

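Total RNA (50 to 100 ng) from cartilage zones cut out by hand from 60 µm frozen sections was amplified in 2 cycles and hybridised to Affymetrix arrays, as the labels' protocols say. The deposited values are MAS5 signal intensities, per the submitters' processing notes, which give no version; the mean without the lowest and highest 2% was 500.1 to 500.2 on every array. No treatment of saturated probes is given in the sources used here.

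The 24 arrays (5 zones, 5 animals) were analysed as log2(signal + 16) with limma 3.58.1 in R 4.3.3 (zone and animal in one linear model over all arrays, trended moderated variance, 15 residual degrees of freedom). Of 31099 probe sets, 57 controls were left out and 19213 (61.8%) were tested, being above the array median in at least 4 arrays. P-values were adjusted by Benjamini-Hochberg over all of these, with a threshold of 0.05. The number of arrays limits the precision. The p-values rest on the spread of zone differences within animals, since differences between animals were taken up by the block. The log2(signal + 16) scale understates folds of dim genes.

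Animal numbers are those of the sample descriptions, which match the biological replicate numbers of the titles. The epiphyseal and transition arrays are linked to the same animals of the other zones by this shared number alone. Deviations from zone means had a median correlation of 0.176 in the 46 same-animal array pairs (-0.142 to 0.36) and -0.046 in the 184 others. No 2 arrays shared more than 50 identical values.

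The members and gene lists were chosen with earlier results of these data known. Named with values were up to 8 called members per direction with the smallest adjusted p that moved alike in every animal, the 8 smallest p of the F test, members with known special roles or paralog symbols, and up to 4 genes of each other list. Other members and further probe sets were named after their values were seen. Symbols came from the platform table, and 48 of 50 members matched the RefSeq gene table. Alternatives were pseudocounts, quantile and median scaling, filters, no animal block, only the zones compared, array weights, averaging the probe sets of each gene and leaving out each animal. On simulated data for the hypertrophic against proliferative comparison (19213 probe sets), 1 of 100 changes of 1.3-fold, 10 of 100 of 1.5-fold and 45 of 100 of 2-fold were recovered, with 2 false calls. The simulation held no zone effect outside the changed probe sets, so its adjustment was stricter than that of the real comparison. There, 20.5% of all tested probe sets were called lower and 16.9% higher. The simulated recovery therefore does not give the recovery in the real comparison. Plots used matplotlib 3.10.9 (Python 3.11.15).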

Additional observations from a re-analysis of the deposited data

Results flagged for a closer look

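In 240 groups of 4 or 5 arrays (each of the 47 tested members, as log2(signal + 16), and the median deviation of the bright members, in each of 5 zones), 17 groups, all of single members, held a single array far from the others. Chance alone gives about 1 in 20 such groups where groups are independent. These are not, because members share arrays and rise and fall together, so the 17 cannot be set against that rate. In epiphyseal cartilage animal 5 stood above the other 3 for 7 members: Rpl12 at 15.41, Rpl22 at 15.46, Rpl27a at 15.88, Rpl37a at 15.87, Rpl41 at 16.13, Rps28 at 16.12 and Rpsa at 16.4, where the others of Rpsa lay at 15.47 to 15.6. Animal 2 stood below the other epiphyseal arrays for Rpl34 at 13.95 and Rplp0 at 14.35. In the resting zone animal 1 stood above the other 4 for Rpl14 at 15.01, Rpl24 at 14.63, Rpl7a at 16.06, Rps3 at 15.89 and Rps9 at 14.49. The transition array of animal 1 was likewise high for Rpl7a at 15.88. Among the dim members, Rpl28 was low in the hypertrophic array of animal 5 at 6.49 (others 8.22 to 8.82), and Rpl37-ps2 was high in the proliferative array of animal 4 at 9.72 (others 8.14 to 8.53).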

How the results depend on the processing

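The hypertrophic against proliferative result kept its direction in each alternative run. Its 24 calls were 31 after quantile normalization, 28 after scaling to one median, 19 with only the zones compared, 15 without the animal block, and 17 to 24 with 1 animal left out; the median of -0.436 ran from -0.547 to -0.316 with 1 animal left out. Members called in every setting that tested them numbered 14 (Rpl14, Rpl22, Rpl23, Rpl23a, Rpl24, Rpl27, Rpl34, Rpl35a, Rps13, Rps15, Rps15a, Rps3, Rps4y2 and Rps9). The F test over the zones gave 31 instead of 19 after quantile normalization and 9 without the block.

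The transition against proliferative calls (9) were 1 after median scaling, 5 without the filter, 1 without the block, 27 with only the zones compared and 4 to 7 with 1 animal left out; the median of -0.39 became -0.162 after quantile normalization. The hypertrophic against transition calls (6) were 20 after quantile normalization (1 higher), 16 after median scaling (0 higher), 1 without the block, 3 with only the zones compared and 0 to 5 with 1 animal left out, 0 being without animal 5; the median of -0.086 became -0.244 and -0.357. Median scaling moved the median of all tested probe sets from 0.016 to -0.24 in this comparison, and relative to it the members' median was -0.117 against -0.102. Choices made after seeing the data, leaving out the hypertrophic array of animal 4 or the transition array of animal 5, gave 6 and 4 calls here, 20 hypertrophic against proliferative calls without the former and 6 transition against proliferative calls without the latter. The median against epiphyseal cartilage (0.175) ran from -0.002 to 0.289 with 1 animal left out, and that of proliferative against resting (0.028) from -0.035 without animal 4, through -0.004 without animal 5, to 0.122. The cause of these shifts was not tested. Few replicates limit the detection of changes under 2-fold.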

Other observations

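The mitochondrial ribosomal proteins, which build the separate ribosome of the mitochondrion, were all tested (73 of 73). From the resting to the proliferative zone limma called 10 of them higher (13.7%) and 1 lower (1.37%), against 6.4% and 7.55% of all tested probe sets, with a median log2 difference of 0.187. Mrps6, a small subunit protein, was higher by 1.29 ± 0.14 (adjusted p = 5.49e-07), with mean signals of 7816 and 3105. Mrps12 was higher by 0.99 ± 0.15 (adjusted p = 5.88e-05), Mrpl17 by 0.65 ± 0.14 (adjusted p = 0.00233) and Mrpl12 by 0.61 ± 0.13 (adjusted p = 0.00138). The only lower one was Mrps31, at -0.57 ± 0.17 (adjusted p = 0.0244).

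Against the proliferative zone the hypertrophic zone had 16 mitochondrial ribosomal proteins lower (21.9%) and 5 higher (6.85%), with a median of -0.148. Over all tested probe sets 20.5% were lower and 16.9% higher, so the share of lower calls was near the background. Mrpl51 was lower, at -0.93 ± 0.12 (adjusted p = 1.43e-06), and Mrpl52 at -1.24 ± 0.18 (adjusted p = 4.57e-06). Mrps6 was higher by 0.69 ± 0.14 (adjusted p = 0.000495) and Mrpl46 by 0.79 ± 0.17 (adjusted p = 0.000597). In the transition zone 5 were higher (6.85%) and 4 lower (5.48%) than in the proliferative zone, both shares below those of all tested probe sets (8.85% and 12.5%), with Mrps6 higher by 0.80 ± 0.14 (adjusted p = 0.000225). The difference between the cytosolic and mitochondrial sets was not tested.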
